A study of Mus musculus with 6 samples.

Results

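The enzymes of serine synthesis and of the folate one-carbon cycle were examined in the epididymal fat of mice labelled TfrcAKO, named for the transferrin receptor gene Tfrc, and of Tfrcfl/fl controls. The members were 10 genes taken by name from a table of 35275 genes, and each was found once: Phgdh, Psat1 and Psph of serine synthesis, Shmt1, Mthfd1 and Aldh1l1 of the cytosolic folate steps, and Shmt2, Mthfd2, Mthfd1l and Aldh1l2 of the mitochondrial folate steps. All samples were epididymal adipose tissue, the visceral fat beside the testis, of male C57BL/6 mice given a 60% high fat diet for 10 weeks from 2 months of age, with a stated age of 4.5 months. The 3 control samples (WT) were labelled Tfrcfl/fl, a genotype with loxP-flanked Tfrc alleles, and the 3 knockout samples (KO) TfrcAKO. AKO usually stands for adipocyte knockout, but neither the abbreviation nor the Cre driver is spelled out in the labels, and whether each sample is a separate animal is not stated either. The p-values therefore reflect only how far these samples scatter, which may be technical. Values are FPKM, fragments per kilobase of gene scaled to the assigned reads of a library, a level that can be compared between genes because it is per length.

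Serine synthesis branches off glycolysis. Phgdh oxidises 3-phosphoglycerate, Psat1 transfers an amino group from glutamate to the product, and Psph removes the phosphate to leave serine. Serine hydroxymethyltransferases then move a carbon from serine to tetrahydrofolate, giving glycine: Shmt1 does so mainly in the cytosol and Shmt2 in mitochondria. In mitochondria Mthfd2 oxidises the folate-bound carbon, Mthfd1l releases it as formate, and Aldh1l2 can burn it to CO2. Formate leaves for the cytosol, where the trifunctional enzyme Mthfd1 loads it back onto folate for purine, thymidylate and methyl group synthesis, and Aldh1l1 removes it as CO2 with formation of NADPH.

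The start-site regions of 4 members are shown because these genes moved apart in the comparison of genotypes: Phgdh, Psat1 and Aldh1l1 were higher in KO, and Mthfd1l was lower. The sequences are those upstream of a RefSeq start site (GRCm38.p6, the mm10 build). They are read 5′ to 3′ on the gene's strand and stopped where a GENCODE M21 exon begins. For Psat1 and Aldh1l1 the start site used lies inside the gene span given below, and another Psat1 window is not shown. Phgdh lies on the minus strand at chr3:98339991-98340219, Psat1 on the minus strand at chr19:15925060-15925309, Aldh1l1 on the plus strand at chr6:90550543-90550788 and Mthfd1l on the plus strand at chr10:3972825-3973074. Capitals mark a match to the antioxidant response element core TGACNNNGC on either strand.
Phgdh: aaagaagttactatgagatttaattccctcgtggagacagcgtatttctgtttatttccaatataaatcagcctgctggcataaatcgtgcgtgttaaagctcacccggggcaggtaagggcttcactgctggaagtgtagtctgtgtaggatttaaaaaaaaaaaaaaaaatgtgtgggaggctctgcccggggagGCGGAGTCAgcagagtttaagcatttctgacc
Psat1: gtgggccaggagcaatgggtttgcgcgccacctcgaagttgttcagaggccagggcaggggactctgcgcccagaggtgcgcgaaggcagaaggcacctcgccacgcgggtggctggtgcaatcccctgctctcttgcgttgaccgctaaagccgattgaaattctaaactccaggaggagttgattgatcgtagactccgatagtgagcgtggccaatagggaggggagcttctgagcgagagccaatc
Aldh1l1: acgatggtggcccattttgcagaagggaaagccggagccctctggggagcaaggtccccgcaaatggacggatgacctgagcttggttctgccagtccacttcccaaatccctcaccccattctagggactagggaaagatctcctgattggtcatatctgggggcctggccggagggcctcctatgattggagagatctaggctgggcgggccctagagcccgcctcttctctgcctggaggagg
Mthfd1l: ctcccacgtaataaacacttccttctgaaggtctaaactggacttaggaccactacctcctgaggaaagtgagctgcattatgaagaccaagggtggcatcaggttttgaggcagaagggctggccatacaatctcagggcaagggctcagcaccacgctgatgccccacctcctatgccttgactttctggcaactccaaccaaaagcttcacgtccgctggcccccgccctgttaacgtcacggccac

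Both strands of all 32851 promoter windows of the RefSeq table, each 300 bases long, were searched for 3 motifs. TGATGNAAN, the core of the CEBP-ATF response element, was in 3.95% of all windows, the E-box CACGTG in 7.15% and TGACNNNGC in 12.4%. The table held 10 windows for 9 of the members, 2 of them for Psat1. Among these windows only those of Phgdh and Psph held a match, each a single TGACNNNGC on the strand opposite to the gene. The Phgdh match read TGACTCCGC at chr3:98340014-98340022, and the Psph match read TGACGTCGC at chr5:129787241-129787249. No match overlapped another motif, and a match or its absence in these windows is a description of letters only.

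The authors' values corresponded to between 25252839 and 30650624 reads assigned to genes per library. Tfrc itself was lower in KO (log2 difference −0.52 ± 0.12 SE), with a limma adjusted p of 0.0147 that was 0.0595 without WT replicate 2 and 0.0525 without WT replicate 3. Along the first principal component, which held 78.3% of the variance, KO replicate 3 stood farthest from the other libraries, at 60.9 against 21.7 and 25.2 for the other KO libraries. Marker genes of cell types differed too, beside 21.9% called higher and 21.6% lower in limma over all tested genes. Of 18 mature adipocyte markers 17 rose, with a summed level of 9424 to 13165 FPKM in WT and 22561 to 31068 FPKM in KO. Of 16 macrophage markers 12 fell (5 without WT replicate 2 and 7 without WT replicate 3). Their summed level was 6117 to 7047 FPKM in WT and 1526 to 3399 FPKM in KO. Of 12 lipid-associated macrophage markers 10 fell (7 without WT replicate 2 and 9 without WT replicate 3), with a median log2 difference of −1.94. The 1 that rose, Lpl, is also in the mature adipocyte list. All 8 endothelial and 5 of 6 mesothelial markers rose, and all 12 proliferation markers fell. Without WT replicate 2 or WT replicate 3, 4 mesothelial markers rose and 10 proliferation markers fell. Of 9 tested fibroblast and preadipocyte markers 3 fell, a count that was 0 with any 1 of the WT libraries left out. None of the markers of these lists was at 0 in every library. Of 9 T and B lymphocyte markers none passed in limma, 1 had an unadjusted p under 0.05, 1 passed in limma-voom and 4 fell without KO replicate 1. Of 7 epididymal epithelium genes 6 were too low to test. Whole tissue cannot tell fewer cells of a type from less RNA per cell, and the part of these shifts in the results below was not tested.

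Of the 10 enzymes, all of which passed the filter of 0.5 FPKM in 3 samples, 4 were higher in KO, 1 was lower and 5 did not pass the test (limma on log2(FPKM + 0.5), adjusted p under 0.05 over 14383 genes). Across all tested genes 43.5% were called, 21.9% higher and 21.6% lower. The median log2 difference was 0.33 over the members and −0.03 over all tested genes. All 3 serine synthesis enzymes rose, Aldh1l1 rose among the cytosolic folate enzymes, and Mthfd1l fell among the mitochondrial ones. The WT and KO values of 6 members did not overlap, against 60.1% of all tested genes. In 5 of these members KO lay above WT, as in 29.1% of all tested genes, and in 1 it lay below, as in 31.0%.

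**Figure D1:**
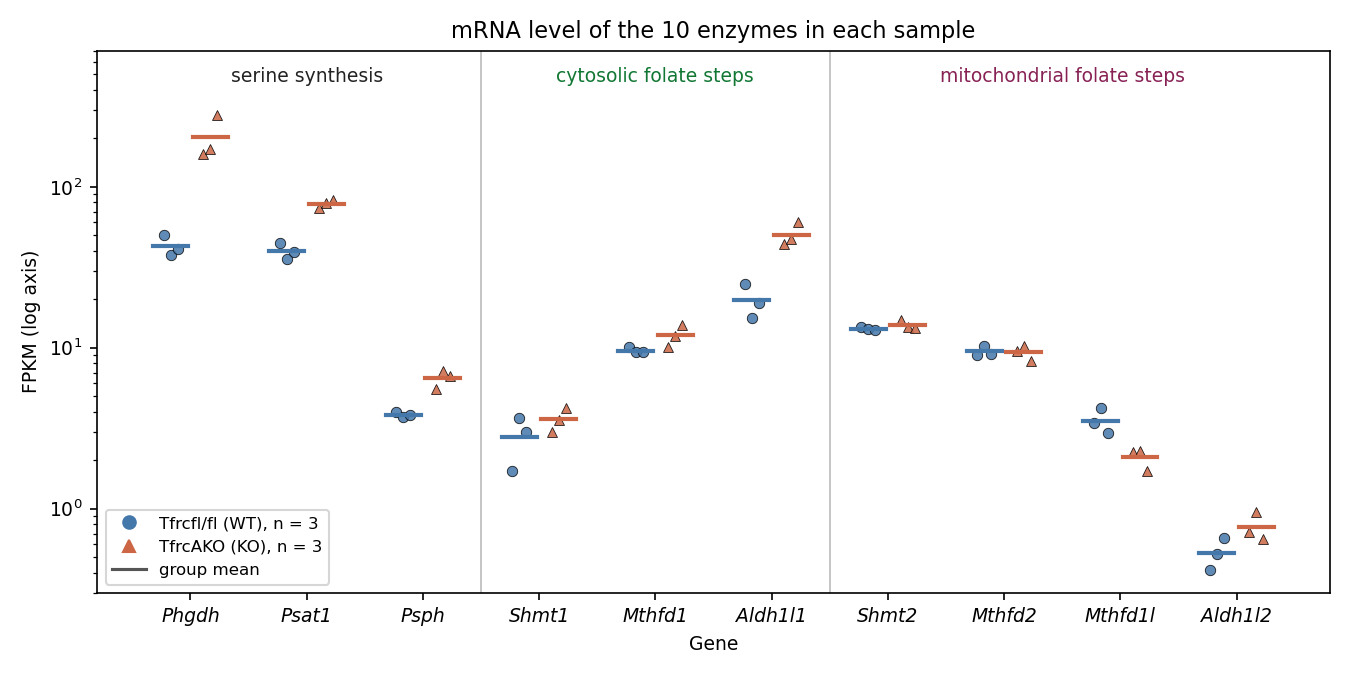
FPKM of each of the 10 enzymes on a log axis, with 1 point per sample (circles WT, triangles KO, n = 3 each) and a bar at the group mean. The KO points lie above all WT points for Phgdh, Psat1, Psph, Mthfd1 and Aldh1l1 and below them for Mthfd1l.

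Phgdh, the entry enzyme of serine synthesis (ENSMUSG00000053398, mm10 chromosome 3, 98313170 to 98339990, minus strand), changed most. Its level was 50.5, 37.8 and 40.8 FPKM in WT replicates 1, 2 and 3 and 159, 172 and 281 FPKM in KO replicates 1, 2 and 3. The lowest KO sample lay far above the highest WT sample, and KO replicate 3 was the highest of all. The means were 43.0 ± 6.64 and 204 ± 67.1 FPKM (SD, n = 3 each), a ratio of 4.74. The log2 difference was 2.19 ± 0.23 (SE, limma adjusted p = 0.00363), the 26th highest of the 14383 tested genes, and it was 1.94 without KO replicate 3. GENCODE lists 13 processed pseudogenes that match Phgdh transcripts at 95% identity or more over at least 200 bases. The 6 of them in the table had at most 0.0473 FPKM in any sample, and the treatment of reads shared with such copies is not stated in the labels.

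Psat1, the aminotransferase of the next step (ENSMUSG00000024640, chromosome 19, 15904678 to 15947337, minus strand), was about as abundant as Phgdh in WT but rose less. It was at 44.5, 35.8 and 39.5 FPKM in WT replicates 1, 2 and 3 and at 73.3, 78.8 and 83.3 FPKM in the corresponding KO replicates. The KO samples lay close together and well above WT, at a ratio of 1.97 between the means of 78.5 ± 5.0 and 39.9 ± 4.37 FPKM (SD, n = 3 each). The log2 difference was 0.97 ± 0.10 (SE, limma adjusted p = 0.00363).

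Psph, the phosphatase that releases serine (ENSMUSG00000029446, chromosome 5, 129765558 to 129787252, minus strand), was the least abundant enzyme of this branch. It was at 3.99, 3.70 and 3.82 FPKM in WT and at 5.55, 7.18 and 6.68 FPKM in KO replicates 1, 2 and 3. The groups did not overlap, and the WT samples were nearly equal. The log2 difference was 0.68 ± 0.11 (SE, limma adjusted p = 0.00554). Psph shares 452 exon bases with Cct6a on the opposite strand, and the strand setting of the counting is not stated in the labels. Cct6a, a chaperonin subunit gene, was at 71.4, 66.6 and 63.5 FPKM in WT and at 64.6, 62.6 and 63.8 FPKM in KO, with a log2 difference of −0.07 and a limma adjusted p of 0.443.

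The balance of Phgdh with the other serine synthesis mRNAs differed between genotypes as well. Phgdh stood at 1.03 to 1.13 times the level of Psat1 in WT samples and at 2.17 to 3.37 times in KO samples. Psat1 stood at 9.68 to 11.1 times the level of Psph in WT and at 11.0 to 13.2 times in KO, so the genotypes overlapped in this ratio. The ratio of Phgdh to Psat1 was highest in KO replicate 3, the library farthest out on the first principal component, and without that library it still was 2.17 and 2.18 in KO. These ratios are given as descriptions, with no test. The summed mature adipocyte markers were also highest in KO replicate 3, at 31068 FPKM, and their median log2 difference of 1.47 lay between those of Psat1 and Phgdh; their part in the rise of the serine synthesis genes was not tested.

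Aldh1l1, the cytosolic formyl-tetrahydrofolate dehydrogenase (ENSMUSG00000030088, chromosome 6, 90486427 to 90600203, plus strand), was the cytosolic folate enzyme that rose. It was at 24.9, 15.3 and 19.1 FPKM in WT replicates 1, 2 and 3 and at 43.8, 47.2 and 60.5 FPKM in KO. The lowest KO sample was above the highest WT sample, and the means of 19.7 ± 4.82 and 50.5 ± 8.81 FPKM (SD, n = 3 each) stood at a ratio of 2.56. The log2 difference was 1.35 ± 0.19 (SE, limma adjusted p = 0.00464), the 258th highest of all tested genes. It was the most abundant cytosolic folate enzyme here in every sample of both genotypes. An antisense gene that shares 499 exon bases with it, Gm15756, had at most 0.526 FPKM.

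Mthfd1, the enzyme that loads formate onto cytosolic folate (ENSMUSG00000021048, chromosome 12, 76255232 to 76319820, plus strand), was at 10.0, 9.38 and 9.40 FPKM in WT and at 10.1, 11.7 and 13.9 FPKM in KO replicates 1, 2 and 3. The groups did not overlap, but KO replicate 1 was almost level with WT replicate 1. The log2 difference of 0.29 ± 0.12 (SE) did not pass the test (limma adjusted p = 0.0861), and without KO replicate 1 it was 0.40 and passed (limma adjusted p = 0.0246).

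Shmt1, the cytosolic serine hydroxymethyltransferase (ENSMUSG00000020534, chromosome 11, 60788104 to 60811718, minus strand), was at 1.70, 3.67 and 2.98 FPKM in WT and at 2.98, 3.58 and 4.21 FPKM in KO. The groups overlapped, and WT replicate 1 was the lowest sample, with 142 recovered reads against 251 to 304 in the others. The log2 difference was 0.36 ± 0.25 (SE, limma adjusted p = 0.278), with a 95% interval from −0.23 to 0.94, and it was 0.09 without WT replicate 1. Its 184 exon bases in common with Smcr8 on the opposite strand add uncertainty.

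Mthfd1l, which makes formate in mitochondria (ENSMUSG00000040675, chromosome 10, 3973118 to 4167081, plus strand), was the 1 member that fell. It was at 3.41, 4.24 and 2.94 FPKM in WT replicates 1, 2 and 3 and at 2.27, 2.29 and 1.72 FPKM in KO. All KO samples were below all WT samples, and the means of 3.53 ± 0.659 and 2.09 ± 0.323 FPKM (SD, n = 3 each) stood at a KO to WT ratio of 0.593. The log2 difference was −0.63 ± 0.16 (SE, limma adjusted p = 0.0191). This call was near the threshold: the limma adjusted p was 0.0515 without WT replicate 1 and 0.0658 without WT replicate 2, with log2 differences of −0.65 and −0.51. Without both KO replicate 3 and WT replicate 2 the log2 difference was −0.40 and the limma adjusted p 0.0586.

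Shmt2 and Mthfd2, the first steps of the mitochondrial branch, showed small differences with narrow intervals. Shmt2 (ENSMUSG00000025403, chromosome 10, 127517123 to 127522444, minus strand) was at 13.4, 13.0 and 13.0 FPKM in WT and at 14.8, 13.5 and 13.2 FPKM in KO. Its log2 difference was 0.07 ± 0.07 (SE, limma adjusted p = 0.459), with a 95% interval from −0.10 to 0.24. Mthfd2 (ENSMUSG00000005667, chromosome 6, 83305691 to 83317606, minus strand), the NAD-dependent dehydrogenase and cyclohydrolase that proliferating cells are known to express, was at 9.04, 10.3 and 9.18 FPKM in WT and at 9.51, 10.2 and 8.30 FPKM in KO. Its log2 difference was −0.02 ± 0.10 (SE, limma adjusted p = 0.855), with a 95% interval from −0.26 to 0.21. For both genes the KO and WT samples overlapped, and the intervals leave out changes of the size seen for Psat1 and Phgdh.

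Aldh1l2, the mitochondrial counterpart of Aldh1l1 (ENSMUSG00000020256, chromosome 10, 83487450 to 83534140, minus strand), was the least abundant member. It was at 0.415, 0.522 and 0.653 FPKM in WT and at 0.720, 0.949 and 0.644 FPKM in KO, from 73 to 151 recovered reads per sample. The groups overlapped, and the log2 difference of 0.30 ± 0.16 (SE) did not pass the test (limma adjusted p = 0.158; 95% interval from −0.07 to 0.67). It shares 1056 exon bases with D10Wsu102e on the opposite strand, which was more abundant, at 6.80 to 9.57 FPKM, and fell by 0.32 on the log2 scale (limma adjusted p = 0.0236). The assignment of reads in the shared bases is not stated in the labels, which leaves the value of Aldh1l2 uncertain.

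**Figure D2:**
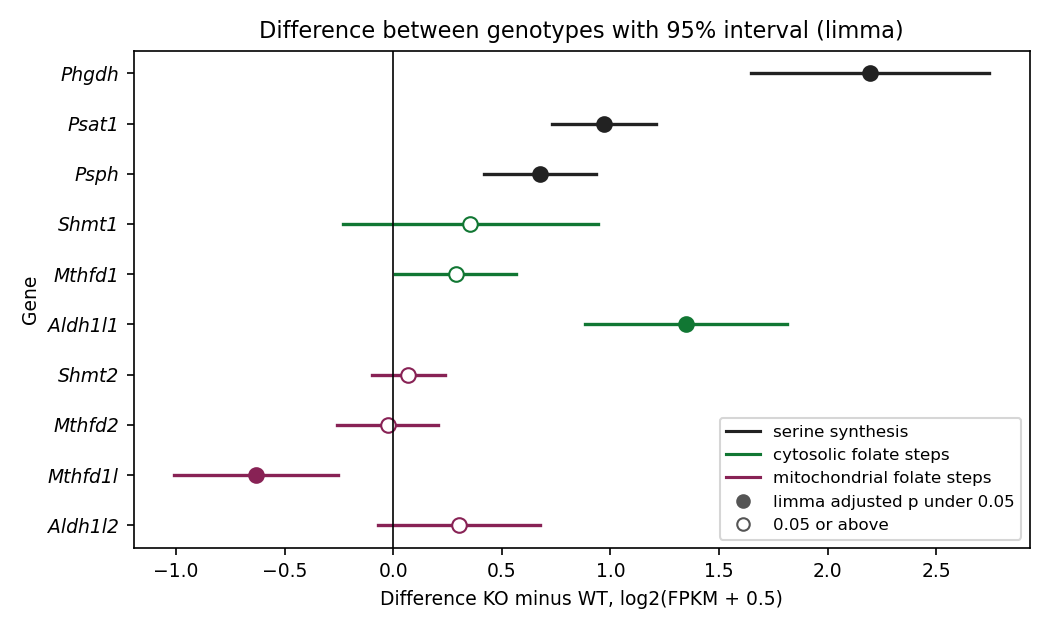
Difference KO minus WT in log2(FPKM + 0.5) for each enzyme, with the 95% interval from limma; filled points passed at an adjusted p under 0.05. The serine synthesis enzymes and Aldh1l1 lie to the right of 0, Mthfd1l lies to the left, and Shmt2 and Mthfd2 lie near 0.

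In order of level in WT, Phgdh (43.0 FPKM) and Psat1 (39.9 FPKM) came first and did not differ beyond their spread. Aldh1l1 (19.7) and Shmt2 (13.1 FPKM) followed, then Mthfd1 (9.60) and Mthfd2 (9.49 FPKM), which again lay within each other's spread. The values of Mthfd1l (3.53 FPKM) overlapped those of both Psph (3.84) and Shmt1 (2.78 FPKM). Psph lay above Shmt1 in every WT sample, though only just in WT replicate 2 (3.70 against 3.67 FPKM), and Aldh1l2 (0.530 FPKM) was last. In KO tissue Phgdh (204 FPKM) stood clear of Psat1 (78.5) and Aldh1l1 (50.5 FPKM), and Mthfd1l (2.09 FPKM) lay below both Psph (6.47) and Shmt1 (3.59 FPKM).

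The balance of mitochondrial and cytosolic enzymes was then taken as a ratio of FPKM within each sample, which does not depend on the scaling between samples. Mthfd1l relative to Mthfd1 was lower in KO: its log2 ratio was −1.56, −1.15 and −1.68 in WT replicates 1, 2 and 3 and −2.16, −2.36 and −3.02 in KO. These groups did not overlap, and Mthfd1l stood at 0.312 to 0.452 times Mthfd1 in WT and at 0.124 to 0.224 times in KO. The difference of −1.05 gave p = 0.1 in a two-sided exact permutation test, the smallest value that 3 against 3 samples allow, and 0.267 after adjustment over the 4 ratios. The other ratios overlapped between genotypes. Their log2 differences were −0.33 for Mthfd2 to Mthfd1 (exact permutation p = 0.2), −0.35 for Shmt2 to Shmt1 (exact permutation p = 0.6) and −0.82 for Aldh1l2 to Aldh1l1 (exact permutation p = 0.2), with adjusted values of 0.267, 0.6 and 0.267. Single libraries moved these differences: that of Shmt2 to Shmt1 was −0.02 without WT replicate 1, −0.59 without WT replicate 2, −0.53 without KO replicate 1 and −0.20 without KO replicate 3, and that of Mthfd2 to Mthfd1 was −0.13 without KO replicate 3. KO replicate 3 had the lowest of all 6 values in each of the 4 ratios.

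**Figure D3:**
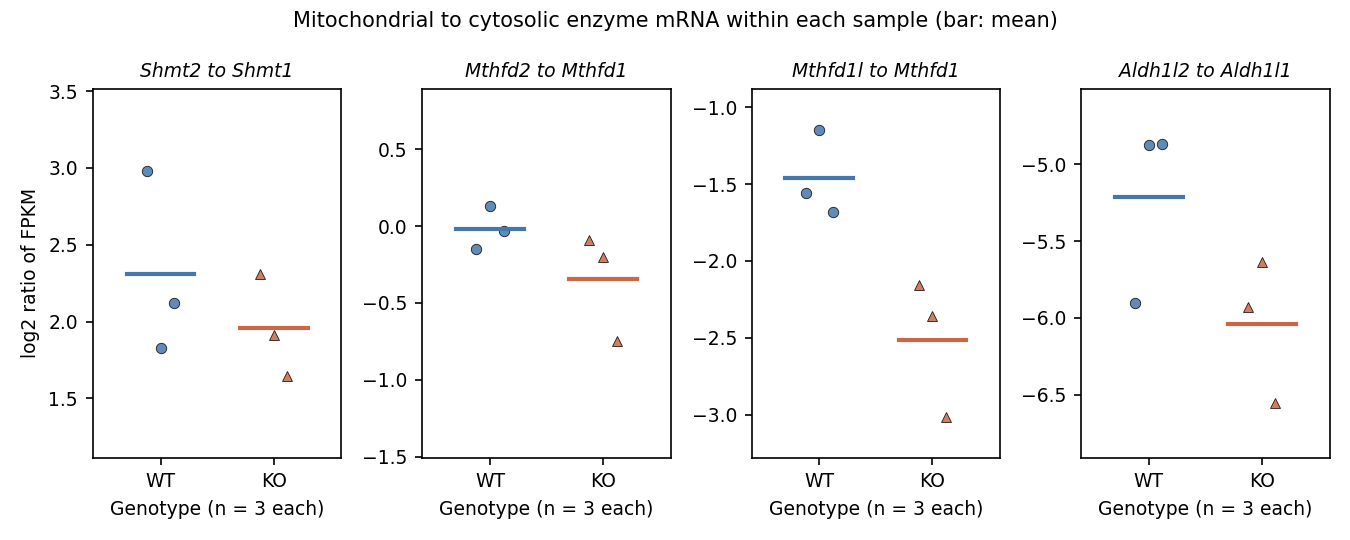
The log2 ratio of a mitochondrial to a cytosolic enzyme's FPKM, with 1 point per sample (circles WT, triangles KO, n = 3 each) and a bar at the mean; each panel spans the same range of log2 units. The KO points lie below all WT points for Mthfd1l to Mthfd1 only.

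Around these steps, other genes of folate interconversion were mostly lower or not called. Of 10 tested, 4 fell and 1 rose, with a median log2 difference of −0.32 (−0.03 over all tested genes). The shares called over all tested genes were 21.6% lower and 21.9% higher. Ggh, the hydrolase that trims glutamate tails from folate, had a mean of 25.2 ± 2.37 FPKM in WT and of 18.8 ± 0.984 FPKM in KO (SD, n = 3 each) and fell by 0.42 ± 0.09 on the log2 scale. Mthfsd, which is named for a synthetase domain and whose activity on folate was not examined here, rose by 0.37 ± 0.08. Tyms, the thymidylate synthase, was named after its values were seen and fell by 0.54 ± 0.16. The limma adjusted p was 0.0112 for Ggh, 0.0143 for Mthfsd and 0.0307 for Tyms, with ± as SE. Only 1 of the 4 decreases passed with any 1 of the WT libraries left out, and 2 passed without KO replicate 2. Tyms did not pass in those WT fits, without KO replicate 1 or with no filter on low values. Mthfsd did not pass without WT replicate 3 (limma adjusted p = 0.0610), so that no gene of the list rose in that fit. Tyms serves DNA synthesis, and the 12 proliferation markers fell in the same samples (10 without WT replicate 2 or WT replicate 3). The summed level of these markers was 214 to 231 FPKM in WT and 62.0 to 114 FPKM in KO, and their part was not tested.

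Folate and serine transporters moved both ways: 6 of 12 rose and 3 fell, against 21.9% and 21.6% of all tested genes. Their median log2 difference was 0.14. Slc1a5, a carrier of neutral amino acids that include serine and glutamine, was at 291, 220 and 230 FPKM in WT replicates 1, 2 and 3 and at 530, 575 and 924 FPKM in KO. All KO samples exceeded all WT samples, and the log2 difference was 1.42 ± 0.23 (SE, limma adjusted p = 0.00600). Slc19a1, the reduced folate carrier, rose from 5.73 ± 0.690 to 8.58 ± 0.729 FPKM (SD, n = 3 each), with a limma adjusted p of 0.00965. Among the sideroflexins, mitochondrial carriers that include serine transporters, Sfxn2 rose by 0.39 ± 0.07 (SE, limma adjusted p = 0.00704) and Sfxn3 fell by 0.75 ± 0.15 (SE, limma adjusted p = 0.0104). Named after its values were seen, Sfxn1, the main mitochondrial serine carrier, had a log2 difference of 0.79 ± 0.22 (SE, limma adjusted p = 0.0267), and it did not pass with any 1 of the WT libraries left out, at an adjusted p of up to 0.0882. Without WT replicate 2 or WT replicate 3, 3 transporters rose. Folr2, also named after its values were seen, is a folate receptor of resident macrophages and fell from 202 to 82.5 FPKM. Macrophage markers as a list had a median of −1.06, and 12 of 16 fell. In that list the resident macrophage markers Lyve1, Timd4 and Cd163 were not called, with log2 differences of 0.45, 0.34 and 0.02. Folr2 did not pass without WT replicate 2 or WT replicate 3, at a limma adjusted p of up to 0.0577, and 2 transporters fell in each of those fits.

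Genes of glycine, choline and sarcosine metabolism, only some of which feed carbon into mitochondrial folate, were called higher where they were called. Of 13 genes 9 were tested, of which 5 rose, against 21.9% of all tested genes, and the median log2 difference was 0.76. Bhmt, Bhmt2, Dmgdh and Tdh were under the filter and not tested. Mean levels in WT and KO were 0.063 and 0.415 FPKM for Bhmt, 0.023 and 0.135 for Bhmt2, and 0.038 and 0.095 for Dmgdh. Tdh was at 0 in every sample. Chdh, the choline dehydrogenase, was at 4.40, 2.67 and 2.5 FPKM in WT and at 9.02, 8.63 and 8.09 FPKM in KO replicates 1, 2 and 3. The groups did not overlap, and the log2 difference was 1.33 ± 0.19 (SE, limma adjusted p = 0.00453). Sardh, the sarcosine dehydrogenase, rose by 1.02 ± 0.12, and Gcsh and Dld, which carry and reoxidise the lipoyl group of the glycine cleavage system, rose by 0.76 ± 0.10 and 0.68 ± 0.14 (SE; limma adjusted p = 0.00371, 0.00379 and 0.0117). Gldc and Amt, the other parts of that system, did not pass. Their log2 differences were 0.39 and 0.15 (limma adjusted p = 0.0647 and 0.282). Dld is also a subunit of the pyruvate, oxoglutarate and branched-chain ketoacid dehydrogenases, and its limma adjusted p was 0.0509 without WT replicate 2. The mature adipocyte markers, with a median of 1.47, moved in the same direction, and their part was not tested.

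In the methionine cycle and transsulfuration, serine is joined to homocysteine on the way to cysteine. Here 5 of 13 tested genes rose and 1 fell, with a median log2 difference of 0.19. Over all tested genes 21.9% were called higher and 21.6% lower, 43.5% in all, which is close to the share called in this list. Cbs, the enzyme that joins them, was at 0.178, 0.138 and 0.435 FPKM in WT and at 2.86, 1.77 and 2.76 FPKM in KO replicates 1, 2 and 3. It was low in every WT sample and passed the filter through the KO samples alone, so its values are a description, and 4 genes rose besides it. The means stood at a ratio of 9.84, and its log2 difference depended on the pseudocount, at 1.98 with 0.5, 2.94 with 0.1 and 1.46 with 1. Cth, which releases cysteine in the following step, rose from 2.83 ± 0.522 to 5.69 ± 0.568 FPKM (SD, n = 3 each, limma adjusted p = 0.00544). Ahcyl2, a relative of the homocysteine-forming enzyme, rose by 0.74 ± 0.14 (SE, limma adjusted p = 0.00787). Sms, the spermine synthase, fell from 13.0 ± 0.928 to 5.76 ± 1.19 FPKM (SD, n = 3 each, limma adjusted p = 0.00410). Without KO replicate 2 the number that rose in this list was 3.

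Purine synthesis takes 2 of its ring carbons from formyl-folate. Of 13 tested purine genes 2 fell and 11 did not pass, with a median log2 difference of −0.06. The share called lower over all tested genes was 21.6%. Those that fell were the adenylosuccinate synthases Adss, by 0.52 ± 0.07, and Adssl1, by 1.42 ± 0.33 (SE; limma adjusted p = 0.00388 and 0.0148). Without WT replicate 2 or WT replicate 3 only 1 of them passed, since Adssl1 did not, and without KO replicate 1 there were 3. None of the list rose in limma, at an unadjusted p under 0.05 or in limma-voom.

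Genes of the amino acid and mitochondrial stress response led by the transcription factor ATF4 moved both ways. ATF4 is known to activate the serine synthesis genes and several mitochondrial folate genes. Of 20 genes in this list 11 were higher and 3 lower, against 21.9% and 21.6% of all tested genes. The median log2 difference was 0.46. The number higher was 8 with any 1 of the WT libraries left out. Atf4 mRNA itself, singled out after its values were seen, was at 70.6, 77.3 and 72.6 FPKM in WT and at 66.9, 68.1 and 56.8 FPKM in KO replicates 1, 2 and 3. Its log2 difference of −0.20 ± 0.09 (SE) did not pass the test (limma adjusted p = 0.121). Control of ATF4 is known to be largely at translation, and the part of ATF4 in the rise of the serine synthesis genes was not tested. The other genes of the list that were not called were Cebpb, Cebpg, Slc7a5, Slc3a2 and Pck2. Their log2 differences were −0.30, 0.08, −0.09, −0.21 and −0.01. Sesn2, a stress-induced inhibitor of mTORC1 signalling, was at 7.05, 5.86 and 6.18 FPKM in WT and at 12.6, 14.5 and 14.3 FPKM in KO. Its groups were well apart, and it rose by 1.06 ± 0.10 (SE, limma adjusted p = 0.00339). Trib3, a pseudokinase, Eif4ebp1, a translation inhibitor, and Nupr1, a stress-induced chromatin protein, rose by 1.10 ± 0.14, 1.31 ± 0.17 and 0.60 ± 0.07 (SE; limma adjusted p = 0.00392, 0.00411 and 0.00366). The 3 that fell, Atf3, Gdf15 and the cystine carrier Slc7a11, were named after their values were seen. The log2 differences of Atf3 and Gdf15 were −1.78 and −1.77, and without WT replicate 2 or WT replicate 3 Atf3 did not pass. Slc7a11 was low in all samples, at 0.591, 0.682 and 0.662 FPKM in WT and at 0.106, 0.164 and 0.0944 FPKM in KO replicates 1, 2 and 3. It passed the filter through the WT samples alone, so its values are a description, and 2 genes fell besides it. Its means stood at a KO to WT ratio of 0.189, and its log2 difference was −0.88 with a pseudocount of 0.5, −1.76 with 0.1 and −0.55 with 1. With any 1 of the WT libraries left out Slc7a11 was under the filter. The number that fell was then 2 without WT replicate 1. It was 1 without WT replicate 2 or WT replicate 3, where Atf3 did not pass either. Macrophages are known to express Atf3 and Gdf15 in obese fat, and the macrophage markers fell in the same samples. The mature adipocyte markers, with a median log2 difference of 1.47, rose in the same samples as the 11 higher genes. The part of either set of markers in this list was not tested.

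**Figure D4:**
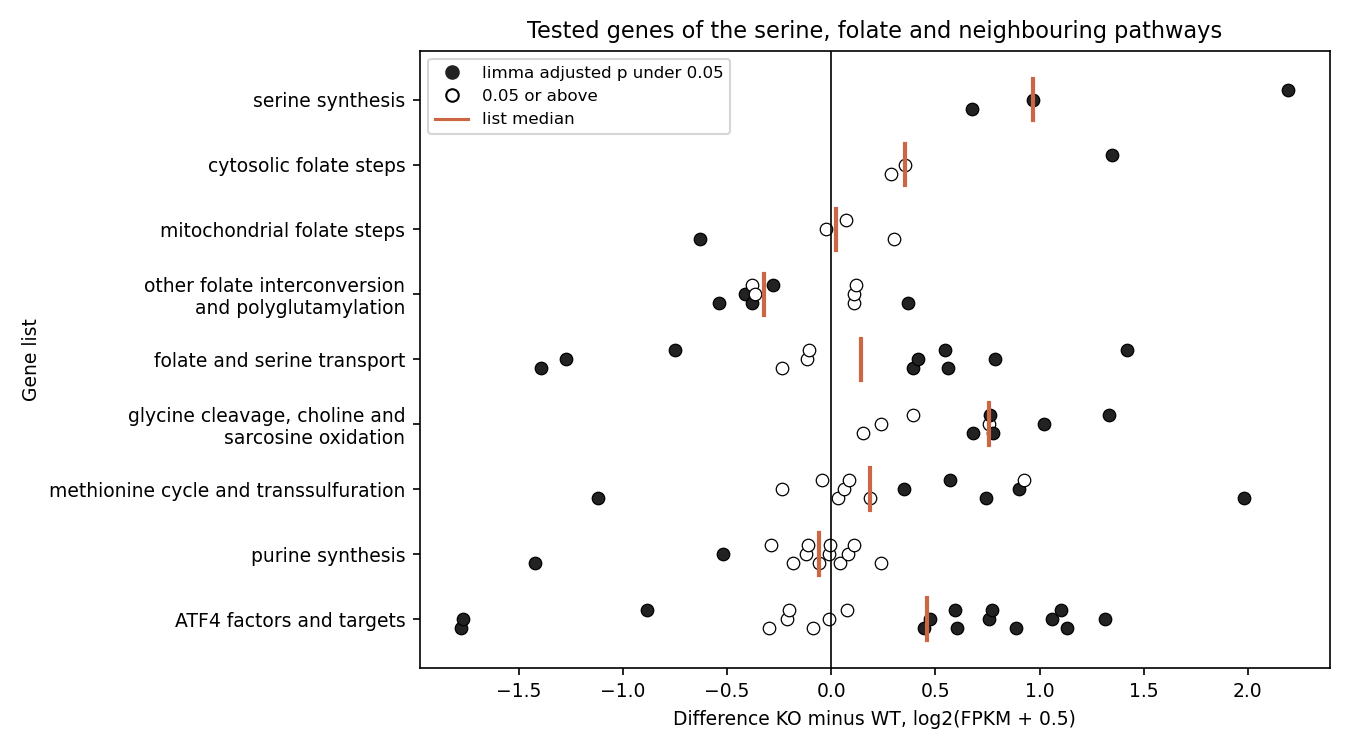
Difference KO minus WT in log2(FPKM + 0.5), with 1 point per tested gene in each list; filled points passed in limma at an adjusted p under 0.05, and the bar is the list median. The median is 0.97 for serine synthesis, 0.02 for the mitochondrial folate steps and −0.06 for purine synthesis.

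For the member of each group of steps with the largest difference, the genes most like it in pattern over the 6 samples were sought among 8229 to 8230 genes whose mean reached 5 FPKM, by Pearson's r on the log2 scale. These values are descriptions: the 6 samples share the split by genotype, and 1328 genes had an r over 0.95 with Phgdh. The nearest to Phgdh were Laptm4b, a lysosomal membrane protein, Hagh, a glyoxalase, and Dmpk, a protein kinase, with r of 0.999 each and log2 differences of 1.27, 0.65 and 1.05. Among the 3 nearest to Aldh1l1 were Pex16, a peroxisome assembly protein, and Nckap1, an actin regulator, with r of 0.998 each and log2 differences of 0.85 and 0.90. The nearest to Mthfd1l were Lgals8, a galectin, Bnip3l, a mitophagy receptor, and Cdk17, with r of 0.999, 0.998 and 0.994 and log2 differences of −0.25, −0.18 and −0.29, of which that of Bnip3l did not pass the test (limma adjusted p = 0.0826).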

How the data were processed

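RNA was sequenced from 6 samples, 3 per genotype. Per the submitters' processing notes, CASAVA, FastQC, STAR 2.5 and HTSeq 0.6.1 were used with build mm10; for the strand setting, annotation release and filters nothing is stated. The deposited unit is FPKM per gene, per the file headers, and the other deposited column, the gene length in bases, was used as given. FPKM times length was a whole multiple of 1 step per sample within 0.01 of a read for 100% of values above 0, which gave the recovered reads. Replicates differed by more than counting noise (chi-square per degree of freedom from 16.7 to 107), so none was counted as a repeat. In this design 3 reads on a 2 kb gene are 0.0489 to 0.0594 FPKM, a limit for counting error only.

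Genes with at least 0.5 FPKM in 3 samples were fitted as log2(FPKM + 0.5) with limma 3.58.1 (R 4.3.3; trend, robust; two-sided; Benjamini-Hochberg over all tested genes). A procedure check was run on simulated data. Ratios used exact permutation tests (scipy 1.17.1). Overlaps came from GENCODE M21. Named genes were all members, up to 4 called genes with the smallest p per pathway list, Tfrc, and the 3 genes most like the leading member of each group of steps, with exceptions marked; some genes that the rule names are not reported here, though the counts include them. The members and lists were chosen with earlier results of these data known. Alternatives were pseudocounts of 0.1 and 1, a filter at 1 FPKM or none, the replicate number as a block, median-of-ratios scaling, limma-voom with TMM factors on recovered reads, each sample left out and, chosen after seeing the data, KO replicate 3 and WT replicate 2 left out together.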

Additional observations from a re-analysis of the deposited data

How the results depend on the processing

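The count of called genes was 6253, with 6196 and 6280 at pseudocounts of 0.1 and 1, 6030 with a filter at 1 FPKM, 5347 with no filter, 6415 after median-of-ratios scaling and 6468 with limma-voom on the recovered reads. It ranged from 3336 to 5861 with 1 library left out, the lowest without WT replicate 2, and 3421 genes were called without WT replicate 3. Of the members, 5 were called, and 4 to 6 with 1 library left out. Phgdh, Psat1, Psph and Aldh1l1 rose in each of the 14 alternatives, with an adjusted p of at most 0.0303, whereas Mthfd1l lost its call in 3 of 14 and Mthfd1 gained one in 1 of 14. No called member changed direction. The mitochondrial to cytosolic ratios kept their sign in all 9 alternatives run on each, but with 1 library left out that of Shmt2 to Shmt1 ranged from −0.59 to −0.02 and that of Mthfd2 to Mthfd1 from −0.45 to −0.13, and none could reach an exact p under 0.05. With the filter at 1 FPKM, Aldh1l2 was not tested. The planned quasi-likelihood count test on recovered reads was not run, and limma-voom was the only alternative that used them. With the replicate number as a block, 4581 genes and 5 members were called, the latter with adjusted p values of 0.0180 for Phgdh and 0.0227 for Mthfd1l, and decreases in other folate genes numbered 1. Deviations of samples with the same number from their group means had correlations of −0.24, 0.03 and −0.18 for numbers 1, 2 and 3. With means of 3 samples such values cannot tell whether these samples shared a batch, and the labels do not say that the numbers pair them. Depth limits Aldh1l2, with 73 to 151 reads per sample.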
